A study of Mus musculus with 14 samples.

Results

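H2A.Z in the epithelium of the mouse embryonic small intestine was compared between E12.5 and E14.5, region by region, on the autosomes. The regions were formed by merging all peaks of the 4 embryonic peak lists, 2 of each stage, that overlapped or touched on chromosomes 1 to 19, and a list held a region if it had a peak in it. This gave 29228 regions, of 45028 formed by all 8 H2A.Z lists of the series on all chromosomes. The lists of E12.5 replicates 1 and 2 held 25435 and 21525 of the 29228 regions, and those of E14.5 replicates 1 and 2 held 16727 and 5400.

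H2A.Z is a variant of the core histone H2A that takes its place in nucleosomes beside active and poised promoters and at many enhancers. It is put into chromatin by remodelling complexes of the SWR1 family and lies on both sides of the open stretch at the start of many genes. Between these days of gestation the gut epithelium is a dividing tube of progenitors that goes on to form villi, while the stem cells of the adult crypt appear later.

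The embryonic cells came from mice of a mixed C57BL/6 CD1 strain and were sorted as living EpCAM+ cells without CD31 and CD45, markers of endothelium and blood. No genotype or agent set E12.5 apart from E14.5, so that the stage was the labelled difference. The adult samples, used here for presence and for the fold at named regions, were enterocytes and Lgr5+ intestinal stem cells (ISC) of males at postnatal day 60 that carried Lgr5EGFP-Cre-ERT. The libraries of a stage are called biological duplicates, with no statement on separate litters or pools, so p-values measure the spread between these libraries alone. Whether epithelial marker genes carried peaks was not analysed here, since no gene annotation of the build of the files, mm9, was used.

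Of the 4 lists, that of E14.5 replicate 2 was unlike the rest before any comparison of stages. The caller estimated a fragment size of 71 bp for it, close to the tag length of 68 bp, against 191 to 216 bp in the others. Its 5999 autosomal peaks had a median length of 238 bp and covered 1.73 Mb. E14.5 replicate 1 had 16853 peaks, 733 bp and 13.6 Mb, and the E12.5 lists had 25461 and 21661 peaks, 797 and 738 bp, and 23.0 and 17.9 Mb. The highest −log10 q of a peak was 10.8 in E14.5 replicate 2 and 25.9 to 33.6 elsewhere. Depth was 27835048 tags in E14.5 replicate 2, 30915480 in E14.5 replicate 1, and 35261834 and 38511645 at E12.5, so that both E14.5 libraries were also the shallower ones. The stage means were 23561 ± 2687 peaks at E12.5 and 11426 ± 7675 at E14.5 (SD, n = 2 each). The results that use E14.5 replicate 2 are therefore also given without it where this could be done, and the part of the fragment size in the results was not tested. Depth separated the libraries as the stages did, so the effects of depth and stage cannot be told apart.

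The first question was which regions the stages shared. The most common pattern was a peak in both E12.5 lists and in E14.5 replicate 1 alone, with 9179 regions (31.4%). All 4 lists held 5116 regions (17.5%). Regions with peaks in both lists of E12.5 and none at E14.5 numbered 4613 of 29228 (15.8%), and the reverse 33 (0.113%). These regions are called E12.5-only and E14.5-only here, a statement on peak calls and not on the absence of H2A.Z. Without E14.5 replicate 2 the numbers were 14295 shared, 4682 E12.5-only and 1170 with a peak in E14.5 replicate 1 and in neither E12.5 list. Without E14.5 replicate 1 they were 5186, 13787 and 115. With lists of equal length, the 5999 strongest peaks of each, 642 regions were E12.5-only and 419 E14.5-only. With the 16853 strongest peaks of each list but E14.5 replicate 2 the order turned, to 1787 E12.5-only regions and 2559 in E14.5 replicate 1 and neither E12.5 list. Another 5531 regions were held by E12.5 replicate 1 alone, 2177 by E12.5 replicate 2 alone, 1137 by E14.5 replicate 1 alone and 75 by E14.5 replicate 2 alone.

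**Figure D1:**
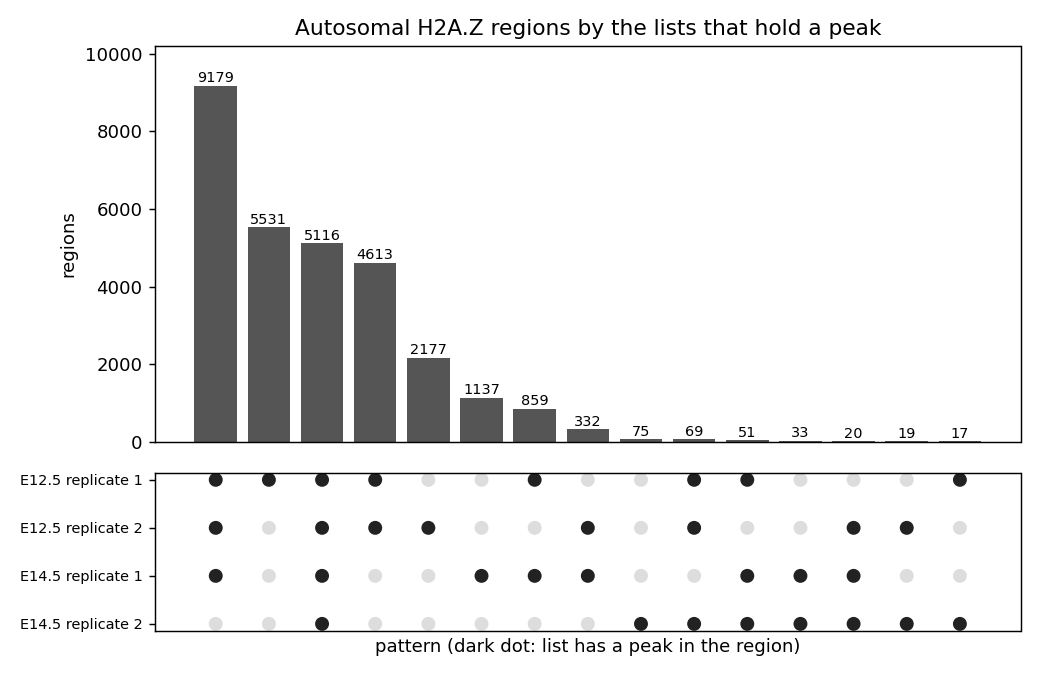
Number of autosomal regions (y axis) in each of the 15 patterns of presence over the 4 lists. A dark dot means that the list has a peak; the 4613 E12.5-only and 33 E14.5-only regions are the fourth and the twelfth bar.

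The E14.5 lists lay almost inside those of E12.5. Of the 5400 regions of E14.5 replicate 2, 98.0% (95% Wilson interval 97.6 to 98.3) had a peak in at least 1 E12.5 list and 96.0% in both. E14.5 replicate 1 had 93.0% (92.6 to 93.4) of its 16727 regions in at least 1 E12.5 list and 85.5% in both. In the other direction, 60.1% of the regions of E12.5 replicate 1 and 68.5% of those of E12.5 replicate 2 had a peak in at least 1 E14.5 list. Within stages, E12.5 replicate 1 had 74.6% of its regions in replicate 2 and replicate 2 had 88.2% of its regions in replicate 1. E14.5 replicate 2 had 96.7% of its regions in replicate 1, which had 31.2% of its own in replicate 2. These and later intervals take in counting error alone, and regions near each other are not independent.

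Whether an E12.5 region was found again at E14.5 followed its strength at E12.5. The 18977 regions of both E12.5 lists were put in order by the mean of their within-list percentiles of pileup, the height of the stacked, extended tags, and divided into deciles, 10 groups of equal size. E14.5 replicate 1 had a peak in 33.2% of the lowest decile, 41.5% of the next, 78.9% of the fifth and 99.5% of the highest. E14.5 replicate 2 had a peak in 4.06%, 6.27%, 16.2% and 71.0% of the same deciles. In the highest decile, 10 of 1897 regions (0.527%) had no E14.5 peak, and in the lowest 1251 of 1898 (65.9%). The share was higher in each decile than in the one before, in both E14.5 lists, at very different levels.

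The other measures of strength gave a like order. By fold enrichment, the ratio of the pileup to the local background, the share in E14.5 replicate 1 was 35.2% in the lowest and 99.4% in the highest decile, and that in E14.5 replicate 2 was 2.48% and 74.3%. By peak length the shares went from 29.9% to 97.7% and from 3.64% to 49.6%. The longest E12.5 regions thus had a peak in E14.5 replicate 2 in fewer cases than those of highest pileup or fold. Of the regions in the top decile by length, 43 had no E14.5 peak.

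**Figure D2:**
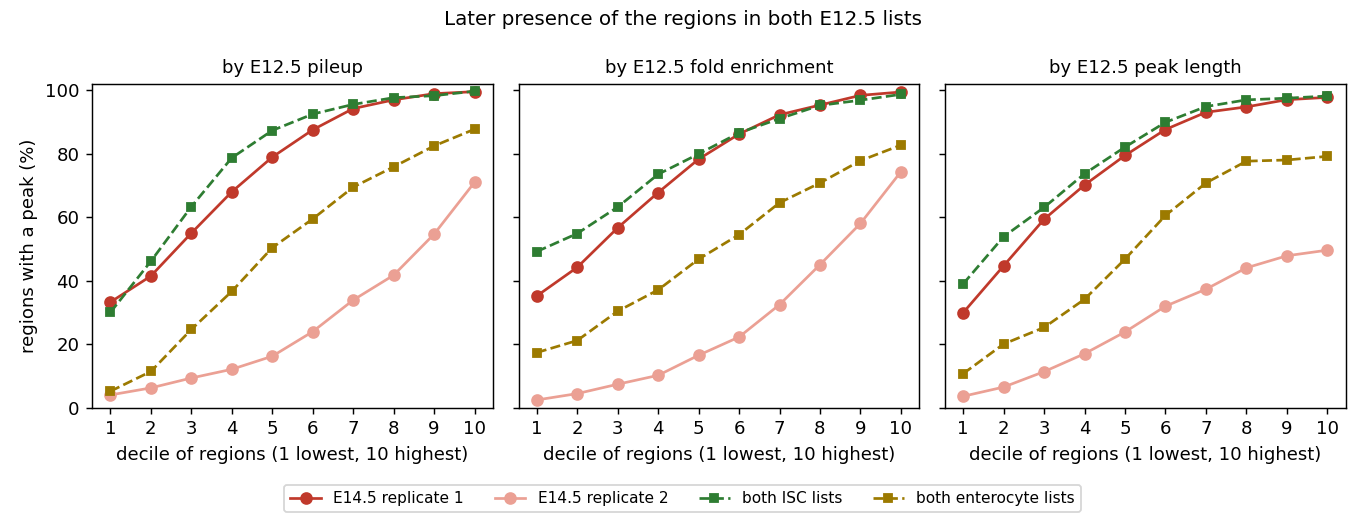
Share of the 18977 regions of both E12.5 lists (y axis, %) with a peak in each later list, by decile of E12.5 pileup, fold enrichment or peak length (x axis). E14.5 replicate 1 runs from 33.2% to 99.5% by pileup and close to the line of both ISC lists, and E14.5 replicate 2 from 4.06% to 71.0%.

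The E12.5-only regions were weak and short. Their median width was 631 bp, against 1350 bp for the regions of all 4 lists, which merging more peaks widens by construction. Their median fold enrichment was 3.21 in E12.5 replicate 1 and 2.95 in replicate 2, and that of the regions of all 4 lists 4.78 and 3.96 in the same lists. Regions of both E12.5 lists and E14.5 replicate 1 alone lay between, with 3.94 and 3.35. In E12.5 replicate 1, 18 E12.5-only regions (0.390%) were among the top decile of the list by pileup, and in replicate 2 21 (0.455%). Below the middle of these lists lay 75.8% and 82.4%. Without E14.5 replicate 2 the class gained 69 regions, with a median fold of 3.42 and 3.10 in the E12.5 lists.

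A few E12.5-only regions were strong, and the 6 named here had peaks again in the adult. The 6 with the highest value of the lower of their fold percentiles in the E12.5 lists are given in order, with coordinates in mm9 as throughout. The first, at chr12:8320178-8320740, had a fold of 5.89 and 5.29 in E12.5 replicates 1 and 2, and 5.23 and 5.92 in the enterocyte and 5.77 and 5.63 in the ISC lists. Next, chr9:26962444-26963052 had 5.69 and 5.24 at E12.5, and peaks in enterocyte replicate 2 (2.54) and in both ISC lists (3.13 in each).

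The region at chr6:29424022-29424557, with 5.41 and 5.14, was in all 4 adult lists at a fold of 3.26 to 4.39. So were chr18:60933907-60934451, with 5.57 and 4.48 at E12.5, and chr7:17612633-17613820, with 5.49 and 4.44. The last, chr17:45860779-45861364, had 5.23 and 4.92 at E12.5, 4.96 and 5.10 in the ISC lists and 4.33 in enterocyte replicate 2. None of these 6 had a peak in either E14.5 list, and all 6 had a peak in both ISC lists. Not all strong E12.5 regions did. Without a peak in E14.5 replicate 1, both ISC lists held 62.5% of 32 regions in decile 9 of E12.5 fold. In decile 10, the highest, they held 83.3% of 12.

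As a class, the E12.5-only regions had fewer adult peaks than the E12.5 regions with an E14.5 peak, and more than those of a single E12.5 list. Both ISC lists held 2015 of the 4613 (43.7%, 42.3 to 45.1), and both enterocyte lists 628 (13.6%, 12.7 to 14.6). No adult list held 1978 of them (42.9%). Of the 5116 regions of all 4 embryonic lists, 96.6% were in both ISC and 77.8% in both enterocyte lists, and 1.70% in no adult list. Of the 7708 regions of 1 E12.5 list alone, 23.7% were in both ISC lists, 4.68% in both enterocyte lists and 62.9% in no adult list. Over all 29228 regions the shares were 61.2%, 35.0% and 29.5%. In the lists of equal length, which hold the stronger peaks, 642 regions were E12.5-only. Of these, 94.4% were in both ISC and 65.9% in both enterocyte lists. However, 610 of the 642 had a peak in a full E14.5 list, so these 610 were not E12.5-only by the full lists. The regions shared by all 4 lists of equal length had shares of 99.6% and 88.4%. Without E14.5 replicate 2, the shares of the 4682 E12.5-only regions were 43.9% in both ISC and 13.6% in both enterocyte lists. Enterocyte replicate 1 is another list with a short fragment size, 67 bp. It held 13.9% of the E12.5-only regions, and enterocyte replicate 2 held 28.4%.

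This gap in adult presence was also seen between regions matched on 1 measure of E12.5 strength at a time. Within each decile by E12.5 pileup, the regions of both E12.5 lists were divided by whether E14.5 replicate 1 had a peak, which leaves E14.5 replicate 2 out. In the lowest decile, 46.4% (42.6 to 50.3) of the 631 regions with an E14.5 peak were in both ISC lists, and 21.9% (19.7 to 24.2) of the 1267 without. In the fifth decile the shares were 92.7% (91.2 to 93.9) of 1497 and 67.1% (62.3 to 71.5) of 401. In the eighth they were 98.2% (97.4 to 98.7) of 1839 and 79.7% (67.7 to 88.0) of 59. The share was lower without the E14.5 peak in 9 of 10 deciles, with intervals that did not overlap in any of these 9. The highest decile was the exception, where all 10 regions without an E14.5 peak were in both ISC lists.

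For both enterocyte lists the share was lower without the E14.5 peak in 10 of 10 deciles. It was 9.67% against 3.00% in the lowest, 57.4% against 24.2% in the fifth and 77.2% against 33.9% in the eighth. With deciles by fold enrichment or by length, the shares in both ISC and in both enterocyte lists were lower without the E14.5 peak in 10 of 10 deciles. Strength still differed a little within a decile. The median percentile of E12.5 pileup was 45.7 with and 45.1 without the E14.5 peak in the fifth decile, and 93.3 and 89.9 in the highest. Regions are not replicates of a stage, so no test was made of these shares.

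**Figure D3:**
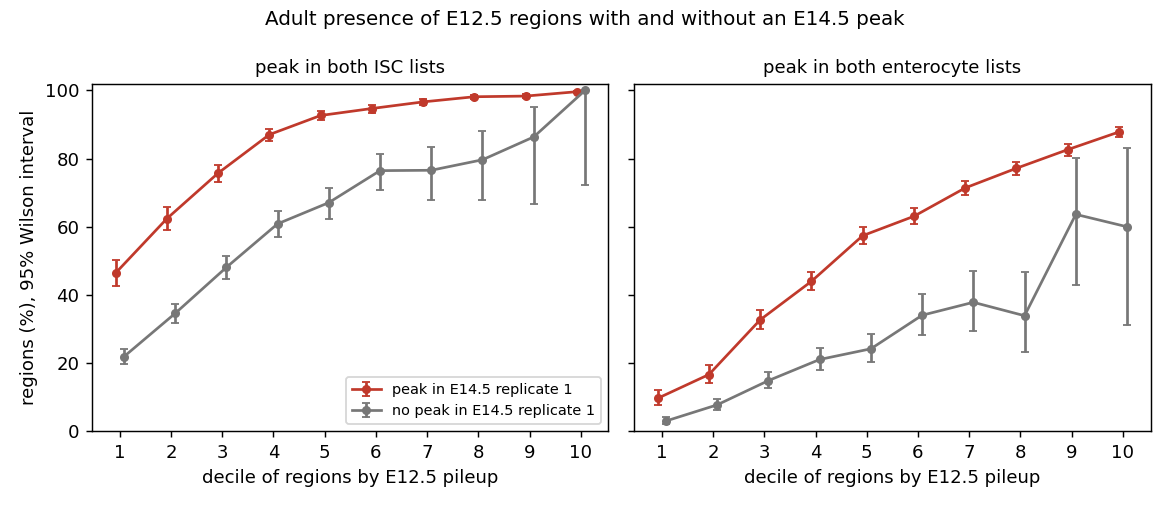
Share of regions of both E12.5 lists (y axis, %, with 95% Wilson intervals) that had a peak in both ISC lists (left) or both enterocyte lists (right), by decile of E12.5 pileup (x axis). Red points are regions with and grey points regions without a peak in E14.5 replicate 1; in the fifth decile the ISC shares are 92.7% and 67.1%.

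The 33 E14.5-only regions were narrow and modest in height. Their median width was 430 bp, and their fold had a median of 3.07 in E14.5 replicate 1 (range 1.90 to 3.64) and of 4.06 in replicate 2 (range 2.85 to 4.67). Their median pileup was at percentile 14.47 of the list of replicate 1 and at percentile 8.91 of that of replicate 2. By fold they were not low, with medians at percentiles 45.9 and 77.1 of the same lists. Both ISC lists held 19 of the 33 (57.6%, 40.8 to 72.8), both enterocyte lists 3 (9.09%), and no adult list 6 (18.2%). Over all 29228 regions these shares were 61.2%, 35.0% and 29.5%, so the ISC interval includes the share over all regions.

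Among the E14.5-only regions, that with the highest value of the lower of its fold percentiles in the E14.5 lists, chr3:91954833-91955146, had a fold of 3.52 and 4.17 in replicates 1 and 2 and no adult peak. The second, chr4:56235188-56235504, had 3.64 and 4.00, and a peak in all 4 adult lists, with a fold of 4.44 to 5.13. At chr19:5801829-5802430, with 3.50 and 3.89 at E14.5, both enterocyte lists had a peak (4.11 and 3.81) and neither ISC list did. This was the only one of the 10 named regions with enterocyte peaks and no ISC peak.

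The opposite, both ISC lists and no enterocyte list, was found at chr9:63437006-63437384 (3.24 and 3.93 at E14.5), chr5:22755791-22756302 (3.40 and 3.82) and chr2:49716971-49717301 (3.23 and 4.06). Both ISC lists and enterocyte replicate 2 had a peak at chr3:135395832-135396418 (3.41 and 3.99), chr8:36032867-36033810 (3.40 and 3.93) and chr18:73995037-73995466 (3.23 and 3.99). The last of the 10, chr5:99562335-99563170, had 3.21 and 3.89 and no adult peak.

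Some E14.5-only regions lay close together, and these were picked out after their positions had been seen. Chromosome 5 held 8 of the 33 and 1831 of all 29228 regions, and chromosome 8 held 6 of the 33 and 1517 of all regions. Of those on chromosome 5, 5 lay between 14954380 and 15200092, with a fold between 2.69 and 2.93 in E14.5 replicate 1 and between 3.86 and 4.67 in replicate 2. On chromosome 8, 3 lay between 19919320 and 19937687. Of the 33, 4 were in the highest decile of both E14.5 lists by pileup. At chr17:36621579-36621955 the pileup was 80.1 and 44.5 and the fold 1.90 and 2.85, and at chr13:4560490-4560702 32.7 and 19.03 and 2.32 and 3.48, with both folds below the list medians of 3.12 and 3.73. At chr1:24619459-24619731 the pileup was 32.2 and 40.6, and the fold was low in replicate 1 (2.00) and high in replicate 2 (4.59). The same held at chr5:14972664-14974162, with a pileup of 30.6 and 15.7 and a fold of 2.70 and 4.67.

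Without E14.5 replicate 2, the E14.5 side held 1170 regions of median width 326 bp. By pileup, 695 of them (59.4%) were in the lowest decile of E14.5 replicate 1 and 7 (0.598%) in the highest. By fold 18 (1.54%) were in the highest decile and 75 (6.41%) in the lowest. Both ISC lists held 404 of them (34.5%), both enterocyte lists 104 (8.89%), and no adult list 505 (43.2%), against 61.2%, 35.0% and 29.5% over all 29228 regions. Those of highest fold, also singled out after their values had been seen, were chr2:125493020-125493306, with a fold of 5.01 and no adult peak, and chr7:57360803-57361206, with 4.93 and a peak in ISC replicate 2 alone. Next were chr13:3658670-3659799, with 4.84 and a peak in 3 adult lists, and chr9:104258035-104258266, with 4.59 and a peak in both ISC lists. At chr7:97433401-97434087 the fold was 4.50 at E14.5, 4.09 and 4.00 in enterocytes and 5.72 and 6.94 in ISC.

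The loss and retention of E12.5 regions differed little between autosomes. The share of the regions of both E12.5 lists with no E14.5 peak was lowest on chromosome 14 (22.3%) and highest on chromosome 19 (26.8%). For E14.5 replicate 1 the share found again ran from 72.7% on chromosome 19 to 77.4% on chromosome 14, and for E14.5 replicate 2 from 23.6% on chromosome 11 to 30.5% on chromosome 13. E12.5-only regions lay a median of 116935 bp from the nearest region of all 4 lists, and 2.30% lay within 5 kb of one. The regions of all 4 lists lay a median of 87946 bp apart, with 2.56% within 5 kb. E12.5-only peaks thus lay about as seldom beside a common region as the common regions beside each other.

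At the 5116 regions of all 4 lists, peaks were shorter at E14.5. The summed peak length had a median of 1261 and 1143 bp in E12.5 replicates 1 and 2, and of 1066 and 271 bp in E14.5 replicates 1 and 2. The fragment sizes were 216, 204, 191 and 71 bp in the same order. The means of these medians were 1202 ± 83.4 and 668.5 ± 562 bp (SD, n = 2 each). E14.5 replicate 1 was near the E12.5 lists, and E14.5 replicate 2 far below all 3. Set against the mean of both E12.5 lists in the same region, the median ratio was 0.884 (quartiles 0.762 and 0.996) in E14.5 replicate 1 and 0.240 (0.145 and 0.382) in replicate 2. Between the E12.5 replicates the median ratio was 1.08. Both E14.5 lists were shorter than both E12.5 lists in 3088 regions (60.4%) and longer in 8 (0.156%).

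Over the 14295 regions shared without E14.5 replicate 2, the medians were 1127, 984 and 830 bp. The median ratio of E14.5 replicate 1 to the E12.5 mean was 0.826 (quartiles 0.638 and 0.971), and of E12.5 replicate 1 to replicate 2 1.12. E14.5 replicate 1 was shorter than both E12.5 lists in 9247 of these regions (64.7%) and longer in 1725 (12.1%). With 2 libraries a stage, no exact permutation test of such a value can give a p below 0.3333. The region with the longest peaks in E12.5 replicate 1 and in E14.5 replicate 1, chr11:23975972-23982431, had 6428 and 3804 bp under peaks at E12.5 and 4820 bp in E14.5 replicate 1. The longest in E12.5 replicate 2 was another, with 5219 bp under peaks. The former had no peak in E14.5 replicate 2 and a peak in all 4 adult lists.

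The short peaks of E14.5 replicate 2 lay inside the longer ones but off their centres. In the 4493 regions with exactly 1 peak in each list, the centre lay a median of 58.5 bp from that of E12.5 replicate 1 in E12.5 replicate 2, 73.5 bp in E14.5 replicate 1 and 192 bp in E14.5 replicate 2. In E14.5 replicate 2, 94.3% of the peaks lay wholly within the peak of E12.5 replicate 1, and 27.0% of the centres lay away from its centre by more than 25% of its length. That last share was 4.296% in E12.5 replicate 2 and 6.17% in E14.5 replicate 1.

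E14.5 replicate 2 also held several peaks in a region more often than the others. More than 1 peak was found in 11.3% of the 5116 regions in this list, in 0.195% and 0.684% in the E12.5 lists and in 0.723% in E14.5 replicate 1. Where it had exactly 2, in 560 regions, their centres were a median of 734 bp apart (quartiles 607 and 877), and 546 of these regions had a single peak in each other list. The regions with such pairs were the longer ones, with a median of 1530.5 bp in E12.5 replicate 1 against 1224 bp where E14.5 replicate 2 had 1 peak. A single region of the other lists was thus counted as a pair of separate short peaks in this library.

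**Figure D4:**
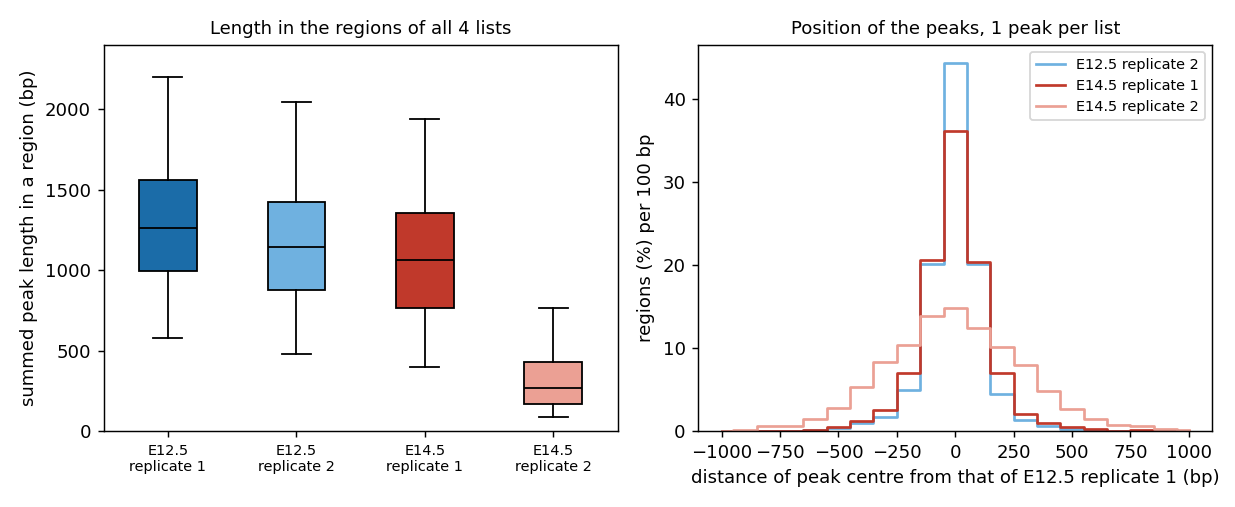
Left, summed peak length (y axis, bp) in the 5116 regions of all 4 lists, by library; the line is the median, the box the quartiles and the whiskers percentiles 5 and 95. Right, distance of each peak's centre from that of E12.5 replicate 1 (x axis, bp) in the 4493 regions with 1 peak per list, as the share of regions per 100 bp; E14.5 replicate 2, with a median distance of 192 bp, is the widest.

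The order of the shared regions by strength was compared next. Pileup and fold are on a scale of their own in each list, so regions were ranked within each list over the same 5116 regions, as percentiles from 0 to 100. By pileup, Spearman's rho across regions was 0.768 between the E12.5 lists, 0.679 and 0.728 between E14.5 replicate 1 and each of them, 0.605 between the E14.5 lists, and 0.535 and 0.590 between E14.5 replicate 2 and the E12.5 lists. By fold it was 0.457 at E12.5, 0.262 and 0.344 for E14.5 replicate 1 with E12.5, and 0.196 between the E14.5 lists. For E14.5 replicate 2 with the E12.5 lists it was -0.0957 and 0.0487. By length it was 0.825 at E12.5, 0.753 and 0.773 for E14.5 replicate 1 with E12.5, and 0.186 to 0.236 for E14.5 replicate 2 with the other lists.

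These values describe the lists across regions, which share libraries, inputs, mappability and local background, and regions are not independent replicates. Over the 14295 regions without E14.5 replicate 2 the pileup values were 0.823 at E12.5 and 0.746 and 0.772 between stages, and those of fold 0.545, 0.342 and 0.413. Those of length were 0.806, 0.695 and 0.729. In both sets of regions the fold order was shared least, and over the 5116 regions the fold order of E14.5 replicate 2 bore almost no relation to that of E12.5.

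No shared region passed the test for a change in rank. In limma, with Benjamini-Hochberg adjustment over the 5116 regions, 0 regions (0%) were called by pileup, 0 by fold and 0 by length at an adjusted p of at most 0.05. The lowest adjusted p was 0.662 for pileup, 0.454 for fold and 0.749 for length. At an unadjusted p under 0.05 there were 371 regions (7.25%) by pileup, 560 (10.9%) by fold and 180 (3.52%) by length. Without E14.5 replicate 2, limma again called 0 of 14295 regions in each measure, with 1312 (9.18%), 1110 (7.76%) and 1762 (12.3%) at an unadjusted p under 0.05. Without E14.5 replicate 1, it called 147 regions by fold and 1393 by length. Each of these 2 fits sets a single E14.5 library against both E12.5 libraries and assumes that it varies as they do. With all 4 lists, the typical standard error of a difference was 15.9 percentile points for pileup, 25.2 for fold and 18.2 for length. Differences of 91.4 and -92.0 points in fold rank, near the limits of the scale, were not called. Even very large shifts thus went uncalled, so 0 calls do not show that the ranks stayed the same.

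The regions whose stages did not overlap in rank are described without a test. By pileup rank, both E14.5 lists were above both E12.5 lists in 960 of the 5116 regions (18.8%) and below in 1019 (19.9%). By fold rank it was 1061 (20.7%) above and 1103 (21.6%) below, and by length rank 1149 (22.5%) above and 859 (16.8%) below. Without E14.5 replicate 2, E14.5 replicate 1 was above both E12.5 lists in 5024 of 14295 regions (35.1%) and below in 5244 (36.7%) by pileup, in 5121 (35.8%) and 5162 (36.1%) by fold, and in 6207 (43.4%) and 4380 (30.6%) by length. The 2 directions were of like size for pileup and fold. Ranking gives every list the same mean percentile, so a rough balance of this kind is largely built in and is no separate result. Of the 960 regions above by pileup, 286 were also above by fold and 132 below. Of the 1019 below by pileup, 314 were below by fold and 138 above. Over all 5116 regions, 20.7% were above and 21.6% below by fold. Fold is a ratio of the pileup to the local background, so the 2 measures are linked by construction.

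The regions below in fold rank at E14.5 were found in more of the adult lists than those above. Both ISC lists held 99.0% of the 1103 below and 91.8% of the 1061 above, and both enterocyte lists 82.3% and 68.7%, against 96.6% and 77.8% over all 5116. The sets differ in E12.5 fold by their choice, with median percentiles of 20.9 and 25.1 above and 74.6 and 72.5 below, and among the regions of both E12.5 lists the share in both ISC lists was 49.2% in the lowest and 98.6% in the highest decile of E12.5 fold. Without E14.5 replicate 2, both ISC lists held 94.2% of the 5162 regions below and 86.0% of the 5121 above by fold, and both enterocyte lists 66.9% and 57.3%.

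By pileup rank, both enterocyte lists held 73.4% of the 960 regions above and 81.5% of the 1019 below, and both ISC lists 96.0% and 96.1%. The enterocyte shares turned without E14.5 replicate 2, with 63.5% of the 5024 regions above and 61.3% of the 5244 below, and the ISC shares were 92.6% and 88.4%.

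The shared regions highest in every list by pileup are described first. Among them, chr4:137881568-137882260 had a pileup of 54.1 and 43.2 at E12.5 against 44.6 and 17.9 at E14.5, with a fold of 7.64, 5.29, 4.59 and 4.14. At chr11:72950924-72952180 the pileup was 44.5, 46.3, 38.9 and 17.9 and the fold 6.13, 6.22, 4.098 and 3.86 in the same order. In each of the 4 lists both lay above the list's median by pileup and by fold. The median pileup of all regions was 11.96 in E14.5 replicate 2 and 22.06 to 22.65 in the other lists.

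The other 4 had a high pileup in every list, and by fold they lay at percentiles 0.176 to 0.306 of E14.5 replicate 2, 0.517 to 54.1 of E14.5 replicate 1, 20.1 to 48.0 of E12.5 replicate 2 and 40.3 to 71.1 of E12.5 replicate 1. At chr8:20019700-20020655 the pileup was 51.1, 46.1, 54.2 and 39.9 and the fold 3.97, 3.26, 3.18 and 2.23. At chr1:90173519-90177221 it was 62.2, 80.7, 69.1 and 37.8, with a fold of 2.41 to 3.34. At chr17:3084229-3085119 it was 47.5, 45.8, 39.3 and 28.8, with a fold of 2.59 to 3.33, and at chr6:3132599-3133727 64.2, 50.1, 50.4 and 23.5, with a fold of 2.26 to 4.25. All 6 regions had a peak in all 4 adult lists. The region on chromosome 8 starts at 20019700, and the group of 3 E14.5-only regions before it ends at 19937687.

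The regions with the largest differences in pileup rank were chosen among those whose stages did not overlap, and none passed limma (adjusted p = 0.662 for each). At chr6:65620973-65623101 the E12.5 percentiles were 6.15 and 4.89 and those of E14.5 84.9 and 65.4, a difference of 69.6 ± 17.7 points (SE). At chr9:86589245-86590323 they were 11.4 and 7.99, and 77.9 and 77.6, a difference of 68.0 ± 18.4. The next were chr10:127758807-127760305, with a difference of 65.3, and chr2:51828074-51829024, with 64.5. Lower at E14.5, chr17:81463675-81464466 had E12.5 percentiles of 98.6 and 97.6 and E14.5 percentiles of 33.1 and 39.6, a difference of -61.8 ± 16.4. At chr10:23507250-23508586 they were 85.0 and 65.8, and 4.52 and 12.8, a difference of -66.8 ± 18.4. At chr16:37010798-37012550 and chr3:88520782-88521489 the differences were -65.8 and -62.6. By the choice of these 8 regions, E14.5 replicate 1 lay on the same side of both E12.5 lists in each. Their sign without E14.5 replicate 2 is thus no separate result. The differences were then 58.9 to 76.9 and -73.8 to -45.9 points.

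In fold rank the largest positive difference was at chr3:60212360-60213431, where the fold was 3.06 and 3.04 at E12.5 against 5.11 and 4.42 at E14.5, and 3.82 to 6.92 in the adult lists. Its percentiles were 2.16 and 6.69 against 98.6 and 93.1, a difference of 91.4 ± 28.3 points (SE; limma adjusted p = 0.454, as for all regions named by fold). At chr1:60724604-60726147 the fold was 2.99 and 3.26 against 5.47 and 4.67, a difference in rank of 90.8. Lower differences of the same sign were seen at chr18:16196623-16197340 (86.8) and chr5:13398565-13400286 (84.9). The largest negative difference was at chr19:42592743-42593909, with a fold of 6.26 and 5.57 at E12.5, 2.51 and 3.19 at E14.5 and 4.32 to 4.65 in the adult. Its percentiles were 92.3 and 97.3 against 1.69 and 3.94, a difference of -92.0 ± 28.1. Next came chr6:90554558-90555367 (-86.6), chr9:99529628-99530879 (-84.4) and chr9:54546892-54548015 (-82.7). In each of these 8 regions both E14.5 lists lay on the same side of both E12.5 lists by the choice of the regions. Their differences without E14.5 replicate 2 were 72.4 to 84.9 and -90.9 to -62.7 points.

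In length rank the largest differences were at chr1:108772187-108773947, with 527 and 561 bp at E12.5 against 1623 and 622 bp at E14.5 (83.4 ± 19.01 points, SE), and at chr14:118634150-118636810, with 2661 and 2377 bp against 448 and 117 bp (-88.1 ± 19.2). Neither passed limma (adjusted p = 0.749 for each). At chr3:81735547-81737023 the lengths were 735 and 778 bp against 1401 and 618 bp, and at chr1:40142216-40144507 973 and 889 bp against 2292 and 562 bp. In E14.5 replicate 1 each of these 3 regions was longer than in both E12.5 lists. Shorter in both E14.5 lists were chr8:32141941-32143965, with 2022 and 1914 bp against 417 and 96 bp, and chr4:151234914-151237819, with 2906 and 2296 bp against 901 and 77 bp. The remaining named regions were chr5:51943331-51944565 (68.1 points) and chr13:112598489-112600514 (-79.6 points). The 8 differences without E14.5 replicate 2 were 57.9 to 78.8 and -77.2 to -43.1 points, the last at chr4:151234914-151237819, where it was -78.8 with it.

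**Figure D5:**
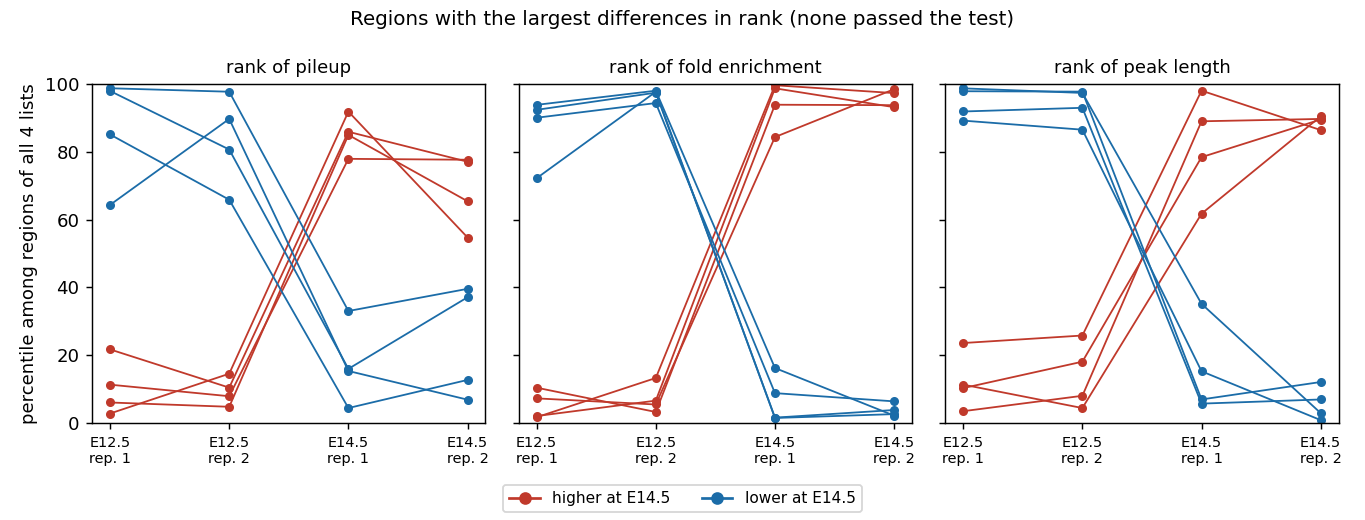
Percentile (y axis, 0 to 100) of the named regions among the 5116 regions of all 4 lists, by library (x axis), for pileup, fold enrichment and peak length. Each line is a region, 4 higher (red) and 4 lower (blue) at E14.5 per measure, chosen for the size of this difference; none passed limma.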

How the data were processed

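The files are broad peak lists, 1 per H2A.Z library, each embryonic one against an input of its own, without pooling. The caller was MACS 2.1.0.20140616 (q cutoff 0.05, model fold 10 to 30), per the file headers. Bowtie 1.1.2, SAMtools 1.2, bcl2fastq 1.8.4 and mm9 are named in the submitters' processing notes. The pileup of a peak is a coverage signal, its fold enrichment a ratio to local background and its significance a −log10 p and q, all deposited by the authors and used within a list only.

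Regions, presence, lengths and ranks were computed from these lists in Python 3.11.15 (pandas 2.3.3). Several peaks of a list in a region gave their highest pileup and fold and their summed length. Ranks over the regions shared by all lists were tested in limma 3.58.1 (R 4.3.3). The fit was also run on simulated ranks with the same spread in every library, which does not copy the lower rank correlations of E14.5 replicate 2. Named regions were the E12.5-only and E14.5-only regions highest in fold rank, the shared regions highest in pileup, the largest differences in rank without overlap, and the longest. The members, classes and named rules were chosen with earlier results of these data known. Alternatives were a coverage of 50%, a −log10 q of 10, merging within 500 bp, equal numbers of peaks, all chromosomes, other ranks and summaries, a replicate block and leaving out each list; equal numbers without E14.5 replicate 2 were added after seeing the data.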

Additional observations from a re-analysis of the deposited data

Results flagged for a closer look

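Outside the autosomes, both E14.5 lists had peaks on the Y chromosome, 17 in replicate 1 and 44 in replicate 2, and both E12.5 lists had 0. The adult lists, from males, had 0 and 4 in enterocytes and 19 and 23 in ISC. E14.5 replicate 2 was also the only one of the 4 lists with peaks on mitochondrial DNA, 7 in number, and no other list of the series had any. The labels used here do not give the sex of the embryos, and no test was made of these counts.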

How the results depend on the processing

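The counts of regions depended on list length. The E12.5-only count of 4613 became 1364 at a −log10 q of at least 10, 642 with the 5999 strongest peaks of each list, and 1787 with 16853 peaks of each list but E14.5 replicate 2. The E14.5-only count of 33 became 1, 419 and 2559 under the same settings, 17 with presence by 50% coverage and 61 on all chromosomes. The last of these equal-number counts reverses which side is larger, but asks for a peak in 1 E14.5 list against 2 E12.5 lists. Of the 419 and 2559 regions, 419 and 1387 had a weaker peak in a full E12.5 list, and of the 642, 610 had one at E14.5. The count of regions in all lists, 5116, became 429 by coverage, 0 at the q limit, and 2337 and 12479 with equal numbers. The highest −log10 q in E14.5 replicate 2 was 10.8, so the q limit of 10 by itself kept every count that needs this list low. Its peaks had a median length ratio of 0.240 to the E12.5 mean, so it could seldom reach 50% coverage of a shared region. Leaving out 1 list gave 4682 to 13787 E12.5-only, 52 to 1170 E14.5-only and 5135 to 14295 shared regions. Adult shares with equal numbers were 94.4% in both ISC and 65.9% in both enterocyte lists for E12.5-only, 96.4% and 69.5% for E14.5-only and 99.6% and 88.4% for shared regions. Leaving out E14.5 replicate 2 gave 34.5% of E14.5-only regions in both ISC lists, and 90.3% and 62.3% of shared regions. Both classes with equal numbers thus had nearly the same adult shares.

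Rank tests could not be run at that q limit, with 0 shared regions. Leaving out 1 list gave 0 to 147 regions called by fold, 0 to 1393 by length and 0 by pileup; the upper values came without E14.5 replicate 1. The mean of the median peak lengths was then 1055.5 to 1257 bp at E12.5 and 269 to 830 bp at E14.5. With the replicate block, limma called 0 regions in each measure, with 378, 492 and 315 at an unadjusted p under 0.05. Same-numbered libraries shared little (correlation of deviations 0.00985, 0.0472 and 0.0212 for pileup, fold and length), so they share only a number. Other ranks, summaries and merging called 0. Of the named regions, 72 values of presence moved and 88 did not. Part of these moves were fixed in advance, since leaving out a list of the named stage lowers the value by construction. Rank differences of the named regions kept their side of the threshold in every setting with 2 libraries a stage. Gene loci were not analysed here. The list lengths limit every E14.5 count.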
